A study of Homo sapiens with 132 samples.

Results

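Gene expression of MKN1 cells treated with afatinib (0.5 μM) for 24 h was compared with that of untreated MKN1 cells of the same time point. The comparison holds 6 of the 132 RNA sequencing libraries of the series, 3 per group, chosen by their labels for cell line, treatment and time. MKN1 is an established gastric cancer cell line from a metastatic site, so every library stands for this single line, grown in medium with serum. The control cells received no treatment, and no solvent control was analysed here. The 6 libraries were fitted together with the other 36 libraries of MKN1 cells, which came from untreated or treated cells after 4 h or 24 h. The treatments were EGF at 5 ng/ml, the antibody cetuximab at 1 μg/ml alone or on top of EGF, the antibody trastuzumab at 5 μg/ml, and afatinib at the same 0.5 μM alone or on top of trastuzumab. Levels are given as CPM, the counts scaled to a common library size by TMM, in the order of replicates 1, 2 and 3.

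Afatinib is an irreversible inhibitor of tyrosine kinases of the HER family. The members of this family are EGFR, ERBB2, ERBB3 and ERBB4. EGFR passes its signal through RAS and the kinases MEK and ERK to immediate early genes such as EGR1, and through PI3K to AKT, which holds the FOXO transcription factors outside the nucleus. ERK also induces its own inhibitors, the dual specificity phosphatases (DUSP) and the Sprouty and SPRED proteins, and several ligands of EGFR, so these genes serve as readouts of the pathway. Cetuximab is an antibody that blocks the binding of ligands to EGFR, and trastuzumab is an antibody against ERBB2.

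A total of 19815 genes passed the filter on low counts. A gene was called regulated if the adjusted p (edgeR's quasi-likelihood test, Benjamini-Hochberg) was below 0.05 and the log2FC was above 1 or below -1. It was called higher or lower if the adjusted p passed, whatever the size of the log2FC, so these calls include the regulated genes. By these criteria 685 genes were regulated upwards (3.46% of the genes tested) and 245 downwards (1.24%) after afatinib treatment. By adjusted p alone 3806 genes were higher (19.2%) and 4192 lower (21.2%). Of the 685 genes 455 (66.4%) had a mean below 1 CPM in untreated cells, and of the 245 genes 106 (43.3%). The direction was the same in all 3 same-numbered pairs for 679 of the upregulated and 239 of the downregulated genes. In 653 of the upregulated genes all afatinib libraries lay above all untreated libraries, and in 223 of the downregulated genes they lay below, against 17.9% and 16.9% of all genes tested.

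The 6 libraries held 42367058 to 52872066 counts, so that a floor of 3 counts corresponds to 0.0567 to 0.0708 CPM (counting error only). The summed level of 6 epithelial markers, mostly keratins, was 17960 to 19196 CPM in untreated and 15182 to 18493 CPM in afatinib libraries. Gastric markers were low, with 8.13 to 13.6 CPM in untreated and 8.06 to 10.0 CPM in afatinib libraries for the 5 tested. Of the immune markers 1, PTPRC, was tested, and it stayed at or below 0.204 CPM. Fibroblast markers were higher with afatinib in 5 of 6 tested genes, with a summed level of 89.8 to 180 CPM in untreated and 335 to 351 CPM in afatinib libraries. Most of that sum came from LUM, the matrix proteoglycan lumican, at 155, 122 and 72.6 CPM in untreated and 298, 300 and 301 CPM in afatinib libraries. The files list 64 of the 958 genes of all lists at 0 counts in all 6 libraries. Among these are the fibroblast marker THY1 and the immune marker CD68, but also genes that dividing or secreting cells use, such as CDK2, SMC4 and XBP1 (chosen after their values were seen), so a 0 in these files does not show that a gene was not expressed.

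Among the regulated genes, replicate 3 was most often the extreme library of the untreated and of the afatinib group. The mean log2 CPM of 30 immediate early and ERK target transcription factors was 5.32, 5.1 and 5.54 in untreated and 4.16, 4.14 and 4.04 in afatinib libraries. In libraries of the same time that are not part of the comparison it was 4.74, 5.04 and 5.52 with trastuzumab and 5.61, 5.63 and 5.7 with EGF. Untreated replicate 3 was the highest untreated library for 175 of the 245 downregulated genes (71.4%) and the lowest for 407 of the 685 upregulated genes (59.4%). Afatinib replicate 3 was the highest afatinib library for 442 of the 685 upregulated genes (64.5%). It was the lowest for 99 of the 245 downregulated genes (40.4%), against 96 for afatinib replicate 1. The median log2 difference within pairs 1, 2 and 3 was 0.99, 1.08 and 1.72 for the upregulated genes and -1.08, -1.08 and -1.64 for the downregulated genes. These genes were selected for their difference, so these values describe the pairs and test nothing. In the sample numbers of the labels, replicates 1 and 2 of 24 h belong to another run of numbers than replicate 3, and the part of this in the difference was not tested. Without replicate 3 the fit called 315 genes regulated upwards and 148 downwards, and by adjusted p alone 2064 higher and 2016 lower. Without the replicate block 2427 were higher and 2641 lower by adjusted p alone. These totals were 3020 and 3180 without replicate 1, and 3869 and 4618 without replicate 2. With scaling by library size alone they were 4948 and 2920. The counts of list members in these settings, given in the order higher and lower, stand beside these totals in place of 3806 and 4192.

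**Figure D1:**
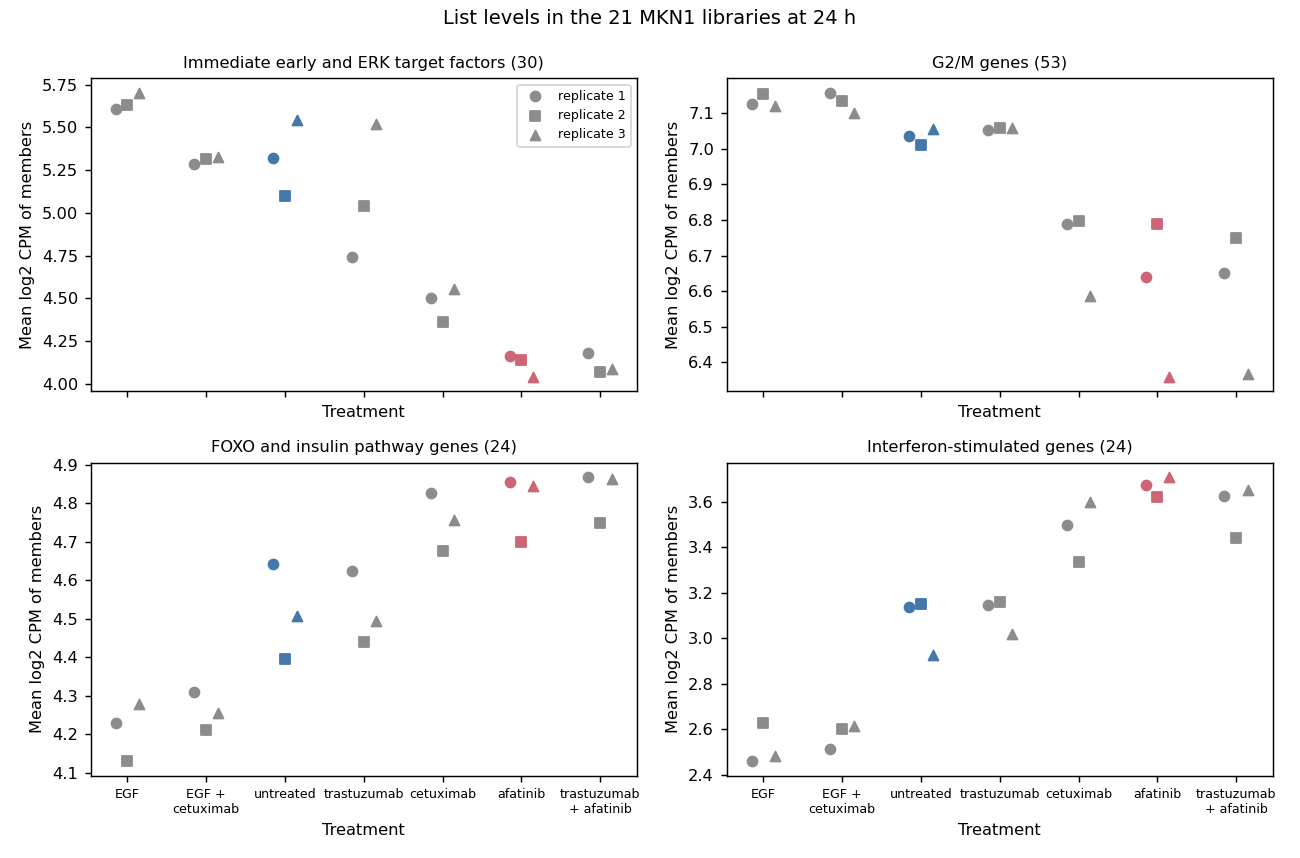
Mean log2 CPM (y axis) of the tested members of 4 gene lists in the 21 MKN1 libraries of 24 h, by treatment (x axis), with 1 point per library, its shape giving the replicate (untreated blue, afatinib red, others grey). For the immediate early and ERK target factors the afatinib libraries lie at 4.04 to 4.16, below the untreated libraries at 5.10 to 5.54, and untreated replicate 3 lies closest to the EGF libraries.

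Upstream sequences of the most changed genes are shown for those that hold a motif of the factors at the end of these pathways. Promoter entries of RefSeq (GRCh38.p14) matched 16 of the 24 genes with the largest rises and falls, and 3 of these held a searched motif in the 250 bases before the start. The EGR1 sequence (chr5:138465229-138465478, plus strand) holds a pair of CArG boxes, the binding motif of serum response factor, which ERK activates through its partners. The SELENOP sequence (chr5:42811893-42812142, minus strand) holds GTAAACA, a motif of forkhead factors such as FOXO. The GPNMB sequence (chr7:23246525-23246774, plus strand) holds TGANTCA, the motif of AP-1. Each is printed 5′ to 3′ on the strand of the gene, with the motif in capitals.
EGR1: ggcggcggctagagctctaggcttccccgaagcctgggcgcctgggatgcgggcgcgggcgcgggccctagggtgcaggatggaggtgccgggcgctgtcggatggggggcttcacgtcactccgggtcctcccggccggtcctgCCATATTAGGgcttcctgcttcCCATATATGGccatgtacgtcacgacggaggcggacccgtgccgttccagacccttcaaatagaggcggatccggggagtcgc
SELENOP: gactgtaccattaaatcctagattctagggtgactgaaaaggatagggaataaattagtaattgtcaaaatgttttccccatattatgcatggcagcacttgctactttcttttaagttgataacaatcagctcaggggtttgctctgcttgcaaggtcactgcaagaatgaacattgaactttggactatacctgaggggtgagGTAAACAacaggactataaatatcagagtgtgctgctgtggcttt
GPNMB: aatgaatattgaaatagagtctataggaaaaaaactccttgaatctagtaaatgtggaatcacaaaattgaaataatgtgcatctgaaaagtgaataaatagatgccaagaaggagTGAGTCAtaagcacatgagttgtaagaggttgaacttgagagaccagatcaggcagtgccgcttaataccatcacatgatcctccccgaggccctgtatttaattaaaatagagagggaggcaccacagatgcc
The RefSeq starts of SELENOP and GPNMB lie inside longer gene models of GENCODE, so other starts of these genes were not searched. Both strands were searched for the CArG box, CCGGAAG (ETS factors), TGANTCA, GCGTGGGCG (EGR factors) and GTAAACA, in the promoters of 135 downregulated, 366 upregulated and 12179 tested genes. TGANTCA was in 11.1% of the downregulated, 11.2% of the upregulated and 4.66% of all tested promoters, and CCGGAAG in 5.93%, 2.73% and 13.6%. GTAAACA was in 2.22%, 4.37% and 2.17%, the CArG box in 1.48%, 1.09% and 1.02%, and GCGTGGGCG in 0.741%, 0.82% and 1.11%. Among all 27305 promoters, tested or not, TGANTCA was in 6.6%, CCGGAAG in 8.82% and GTAAACA in 2.98%. The CArG box was in 1.14% of these and GCGTGGGCG in 0.71%, so the differences depend on the set compared. A match describes the letters in this window and is not a binding site.

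The largest fall by the rule for named genes, which passes over genes of low level, was that of EGR1, an immediate early zinc finger transcription factor (ENSG00000120738, GRCh38 chromosome 5, 138465490 to 138469315). Its level was 232, 113 and 282 CPM in untreated and 7.84, 6.72 and 7.78 CPM in afatinib libraries. All afatinib libraries lay far below the lowest untreated library, and they differed little among themselves. The level was 27.1-fold lower (log2FC -4.76, SE 0.33, adjusted p = 1.3e-12), and the log2FC without replicate 3 was -4.54. Of 30 tested immediate early and ERK target transcription factors, 24 were lower and 3 higher, and 13 were regulated downwards. The median log2FC of the list was -0.91, against 0.01 over all genes tested. Without replicate 3, 22 were lower and 4 higher. The listed FOSB, JUNB and ETV4 were not tested. EGR3, a related factor of low abundance, had 8.25, 2.21 and 5.71 CPM in untreated and 0.335, 0.322 and 0.501 CPM in afatinib libraries (log2FC -3.8). The ETS factor ETV5 had 26.2, 28.7 and 53.1 CPM in untreated and 5.22, 5.2 and 6.06 CPM in afatinib libraries, without overlap (log2FC -2.68, SE 0.18, adjusted p = 4.4e-13). FOSL1, an AP-1 subunit, had 68.3, 75.1 and 125 CPM and 17.8, 15.9 and 9.2 CPM, again without overlap, with a log2FC of -2.68, or -2.08 without replicate 3. The ETS factor ETV1 (log2FC -2.02), the small MAF factor MAFF (-2.1) and the early gene PHLDA1 (-2.41) fell as well, and IER5 fell less (-0.88).

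Genes of negative feedback on ERK held the next largest falls. SPRY4, a Sprouty inhibitor of the signal from receptors to ERK (ENSG00000187678, chromosome 5, 142310427 to 142326455), had 17.3, 20.3 and 53.7 CPM in untreated and 1.43, 1.42 and 1.16 CPM in afatinib libraries. The groups were widely separated, and untreated replicate 3 was the highest library. The log2FC was -4.41 (SE 0.39, adjusted p = 1.6e-10), and -3.71 without replicate 3. DUSP6, a phosphatase of ERK (ENSG00000139318, chromosome 12, 89347232 to 89353271), had 15.5, 14.6 and 41.2 CPM in untreated and 1.22, 1.15 and 1.2 CPM in afatinib libraries. Here too the afatinib libraries lay close together and untreated replicate 3 was high, and the log2FC was -4.21 (SE 0.37, adjusted p = 1.4e-10), or -3.65 without replicate 3. DUSP4 fell from 31.1, 36.4 and 62.5 CPM to 5.21, 5.92 and 5.23 CPM (log2FC -2.97). Of 10 tested MAP kinase phosphatases 7 were lower, 3 of them regulated, and 1, DUSP16, was higher (log2FC 0.45). Their median log2FC was -0.8, and 7 were lower without replicate 3 too. DUSP1, also in this list, was not tested. Among 17 genes of feedback at the receptor 10 were lower and 4 higher, with a median of -0.29. The inhibitors SPRED1 (log2FC -1.63), SPRED2 (-1.38) and SPRY2 (-1.2) and ERRFI1 (-1.76), which binds and blocks the EGFR kinase domain, fell. SPRED3 (0.58) and CBLB (0.61), a ubiquitin ligase for receptors, rose. Without replicate 3, 7 of these genes were lower and 3 higher.

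**Figure D2:**
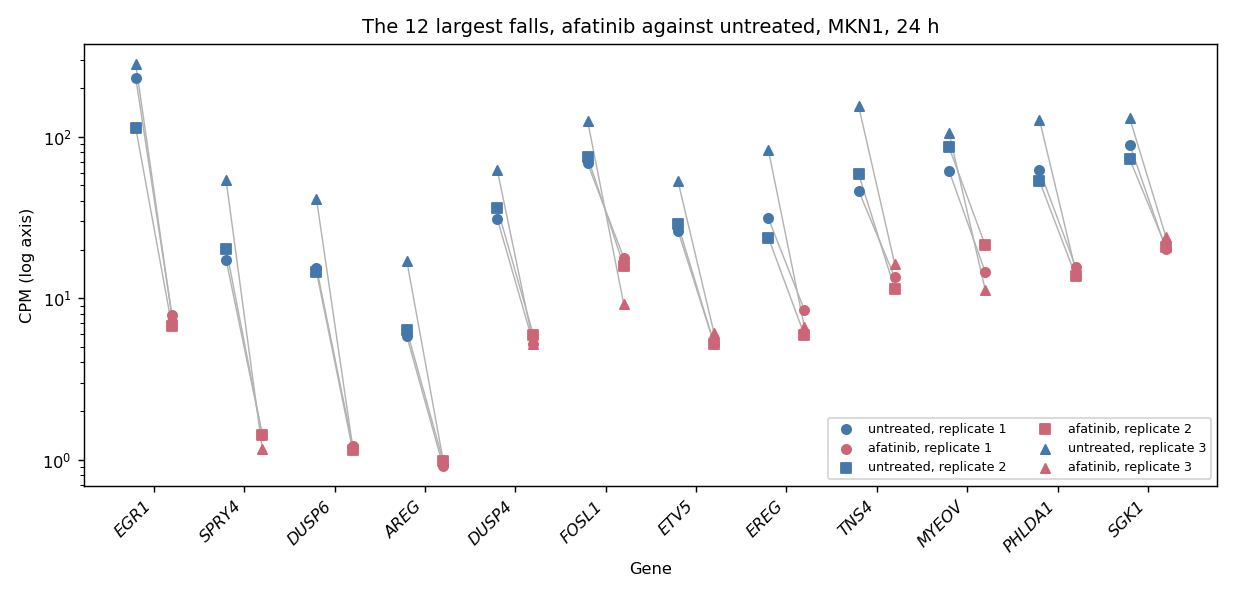
CPM (log axis) of the 12 genes with the largest falls in untreated (blue) and afatinib (red) MKN1 libraries of 24 h, with same-numbered replicates joined by a line and the point shape giving the replicate. In each gene the 3 afatinib libraries lie below the 3 untreated libraries, and untreated replicate 3 is the highest library in each, as for SPRY4 at 53.7 CPM.

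None of the 4 genes of the receptors themselves was regulated. EGFR had 292, 230 and 251 CPM in untreated and 263, 199 and 172 CPM in afatinib libraries, and the groups overlapped. Its log2FC of -0.3 (SE 0.09, adjusted p = 0.0077) passed the test with the replicate block. It did not pass without replicate 3 (log2FC -0.18, adjusted p = 0.12), without the block (adjusted p = 0.24) or with scaling by library size alone (adjusted p = 0.081). ERBB2 had 174, 146 and 179 CPM in untreated and 163, 138 and 155 CPM in afatinib libraries, and its difference did not pass the test (log2FC -0.13, SE 0.15, adjusted p = 0.52). Neither did that of ERBB3 (log2FC 0.2, adjusted p = 0.24) or ERBB4 (-0.36, adjusted p = 0.44). The log2FC of ERBB4 was -0.94 without replicate 3 (SE 0.38, adjusted p = 0.087), so a larger change of this gene is not excluded.

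Of 11 ligands of the family 3 fell strongly and 3 rose. AREG, amphiregulin (ENSG00000109321, chromosome 4, 74445134 to 74455009), had 5.8, 6.33 and 17 CPM in untreated and 0.918, 0.984 and 1.0 CPM in afatinib libraries. The groups did not overlap, and the log2FC was -3.22 (SE 0.28, adjusted p = 1.4e-10), or -2.67 without replicate 3. EREG, epiregulin, fell from 31.3, 23.7 and 83 CPM to 8.44, 5.9 and 6.62 CPM (log2FC -2.58, SE 0.27), with a log2FC of -1.94 without replicate 3. HBEGF, heparin-binding EGF, fell from 15, 20.3 and 30.9 CPM to 5.51, 7.89 and 3.77 CPM (log2FC -1.98, SE 0.29), with a log2FC of -1.39 without replicate 3. TGFA, another ligand of EGFR, did not follow them, with 17.2, 16.1 and 23 CPM in untreated and 17, 16.4 and 20.4 CPM in afatinib libraries (log2FC -0.06, SE 0.08, adjusted p = 0.58). NRG4, a ligand of ERBB4, rose from 1.9, 1.45 and 1.82 CPM to 3.35, 3.33 and 4.61 CPM (log2FC 1.11, SE 0.18, adjusted p = 5.6e-06). BTC (log2FC 0.65) and EGF (0.64) rose less, EGF without a call when replicate 3 was left out (adjusted p = 0.27) and BTC without one when the block was (adjusted p = 0.069). EPGN, NRG1, NRG2 and NRG3 did not pass the test, with log2FC from -0.58 to 0.43.

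Genes for adhesion, proteolysis and motility were among the other large changes, in both directions. TNS4, an adaptor of focal adhesions, fell from 46.1, 58.5 and 154 CPM to 13.4, 11.4 and 16.2 CPM (log2FC -2.57). TNS3, another tensin, rose from 472, 333 and 346 CPM to 681, 483 and 576 CPM (log2FC 0.6, SE 0.06). The matrix proteins CTGF (log2FC -2.11) and CYR61 (-1.41) and the tissue factor F3 (-1.64), which starts coagulation, fell, and VAV3 (1.1), an exchange factor for small GTPases, rose. In this list 14 of 38 tested members were lower and 11 higher, with a median of -0.05, and 9 were lower without the block. Of all genes tested 21.2% were lower and 19.2% higher. The listed PLAU, ITGA5, ITGB3, MMP1 and MMP10 were not tested. Among 22 other receptor tyrosine kinases 11 were lower and 3 higher. EPHA2, an ephrin receptor, fell from 304, 314 and 494 CPM to 101, 117 and 116 CPM (log2FC -1.72, SE 0.15). MYEOV, a neighbour of CCND1 on chromosome 11, fell from 61.5, 86 and 105 CPM to 14.5, 21.3 and 11.3 CPM (log2FC -2.44, SE 0.15). SGK1, a kinase related to AKT, fell from 89.3, 72.5 and 130 CPM to 20.1, 20.8 and 23.9 CPM (log2FC -2.17).

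Genes of the cell cycle fell together, most of them by a small amount. CCND1, the cyclin D1 gene that ERK signalling induces, had 361, 338 and 515 CPM in untreated and 129, 113 and 76.4 CPM in afatinib libraries. The groups were clearly separate (log2FC -1.95, SE 0.17, adjusted p = 9.2e-11). TERT, the catalytic subunit of telomerase, fell from 4.34, 5.23 and 5.69 CPM to 2.31, 2.27 and 1.97 CPM (log2FC -1.21). In the list of cyclins and their kinases and inhibitors 11 of 23 were lower and 6 higher, with 4 and 7 without replicate 3 and 3 and 11 without the block (higher and lower). Of 53 tested G2/M genes 51 were lower and 0 higher, 0 of them past the threshold on the log2FC, with a median of -0.44. AURKA, the Aurora A kinase of mitosis, had 217, 228 and 231 CPM in untreated and 142, 166 and 113 CPM in afatinib libraries, without overlap (log2FC -0.69, SE 0.07). CCNB1, cyclin B1 (log2FC -0.63), BIRC5, survivin (-0.62), and CDC20, an activator of the anaphase-promoting complex (-0.62), fell by similar amounts. Of 42 S phase genes 38 were lower and 0 higher, with a median of -0.35, among them CDC45, a part of the replication helicase (log2FC -0.58). The mean log2 CPM of the G2/M genes was 7.04, 7.01 and 7.06 in untreated and 6.64, 6.79 and 6.36 in afatinib libraries, so afatinib replicate 3 was the lowest. Without replicate 3, 37 G2/M and 22 S phase genes were lower, with medians of -0.29 and -0.24. In these bulk libraries fewer cells in a phase and less RNA per cell cannot be told apart.

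Genes for making ribosomes also fell together. Of 32 tested genes of ribosome biogenesis 30 were lower and 0 higher, with a median log2FC of -0.52, and 24 were lower without replicate 3. NCL, nucleolin, had 1545, 1460 and 1726 CPM in untreated and 1093, 1074 and 909 CPM in afatinib libraries, without overlap (log2FC -0.63, SE 0.07). NOP56, a core protein of small nucleolar ribonucleoproteins (log2FC -0.71), DKC1, dyskerin (-0.65), and MYBBP1A, a nucleolar protein (-0.75), fell by similar amounts. In glycolysis and the pentose phosphate pathway 10 of 25 genes were lower and 2 higher, and 5 were lower without replicate 3. LDHA, lactate dehydrogenase A, fell (log2FC -0.46), and PFKM, the muscle isoform of phosphofructokinase, rose (0.53).

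By the same rule the largest rise was that of SELENOP, the gene of selenoprotein P, a secreted carrier of selenium (ENSG00000250722, chromosome 5, 42799880 to 42887392). It had 2.81, 1.68 and 0.236 CPM in untreated and 15.1, 12.2 and 11.3 CPM in afatinib libraries. The groups were far apart, and untreated replicate 3 was the lowest library. The log2FC was 3.09 (SE 0.3, adjusted p = 9.4e-10), and 2.61 without replicate 3. GPNMB, a transmembrane glycoprotein of melanosomes and lysosomes (ENSG00000136235, chromosome 7, 23235967 to 23275108), rose from 6.87, 6.27 and 3.52 CPM to 28.7, 29.7 and 32.4 CPM, a 5.55-fold higher level (log2FC 2.47, SE 0.16, adjusted p = 3.1e-13). KANK4, of a family of adaptors between adhesions and the cytoskeleton, rose from 12.8, 5.7 and 2.58 CPM to 41.8, 31.4 and 30.3 CPM (log2FC 2.4). AOC1, the diamine oxidase that degrades histamine in the gut, rose from 3.47, 2.8 and 2.0 CPM to 11.8, 13.6 and 16.3 CPM (log2FC 2.33, SE 0.22). In none of these genes did the groups overlap. POU2F3, the transcription factor of tuft cells, rose from 2.21, 1.49 and 0.945 CPM to 8.3, 5.41 and 10.3 CPM (log2FC 2.32, SE 0.24). NPNT, nephronectin, a ligand of integrins, rose from 59.7, 36.2 and 18.9 CPM to 181, 128 and 131 CPM (log2FC 2.02, SE 0.14). LRP2, megalin, an endocytic receptor, rose from 9.05, 6.31 and 10.1 CPM to 30.4, 24.9 and 49.9 CPM (log2FC 2.0). Again the lowest afatinib library lay above the highest untreated library in each. SCIN, scinderin, an actin-severing protein, had a log2FC of 1.92, the protocadherin PCDH18 of 1.93 and the noncoding gene LINC01179 of 2.08. IGHG4, an immunoglobulin constant gene, had a log2FC of 2.5, and its reads may be shared with near-identical neighbours.

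**Figure D3:**
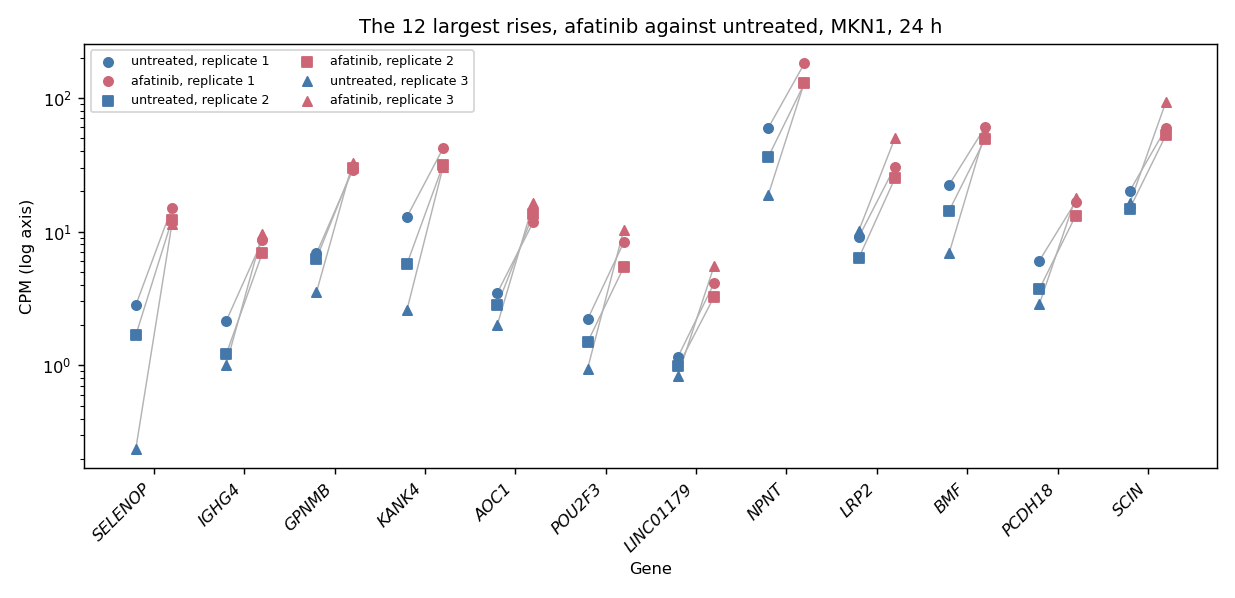
CPM (log axis) of the 12 genes with the largest rises in untreated (blue) and afatinib (red) MKN1 libraries of 24 h, with same-numbered replicates joined by a line and the point shape giving the replicate. In each gene the 3 afatinib libraries lie above the 3 untreated libraries, as for SELENOP at 11.3 to 15.1 CPM against 0.236 to 2.81 CPM.

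Genes of the FOXO and insulin pathway rose more often than they fell. Of 24 tested members 15 were higher and 4 lower, with a median log2FC of 0.32, and 10 were higher and 3 lower without replicate 3. TXNIP, an inhibitor of thioredoxin and of glucose uptake, rose from 79.8, 56.7 and 49.6 CPM to 181, 112 and 142 CPM (log2FC 1.22, SE 0.15, adjusted p = 8.5e-08). PIK3R3, a regulatory subunit of PI3K, rose from 8.84, 6.15 and 7.54 CPM to 16.4, 14.8 and 17.9 CPM (log2FC 1.13), and PDK4, the kinase that turns off pyruvate dehydrogenase, rose (1.03). IRS1, the insulin receptor substrate, fell from 175, 165 and 278 CPM to 99.5, 87.7 and 88.2 CPM (log2FC -1.14), and the pseudokinase TRIB2 fell too (-1.01). In the BCL2 family of apoptosis regulators 4 of 14 were higher and 5 lower, or 2 and 4 without replicate 3. The shares over all genes tested were 19.2% higher and 21.2% lower. BMF, a proapoptotic BH3-only gene, rose from 22.3, 14.3 and 6.87 CPM to 60.5, 49.6 and 55.5 CPM (log2FC 1.95, SE 0.26, adjusted p = 3.1e-07), with a log2FC of 1.6 without replicate 3. The survival genes BCL2 (log2FC -1.08) and MCL1 (-0.59) fell, and so did PMAIP1 (-0.68), which encodes the proapoptotic protein NOXA. TNFSF10, the death ligand TRAIL, rose from 31.7, 23.5 and 10.6 CPM to 63, 63.4 and 65.2 CPM (log2FC 1.57, SE 0.21).

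Genes for the use of fatty acids moved upwards. In the list of PPARA and fatty acid oxidation 17 of 27 were higher and 1 lower, with a median of 0.28, and 15 were higher without replicate 3. FABP3, a fatty acid binding protein, rose from 9.04, 9.4 and 8.07 CPM to 18, 21.8 and 21.4 CPM (log2FC 1.19, SE 0.13). CD36, a fatty acid transporter, rose from 0.409, 0.695 and 0.258 CPM to 1.64, 1.29 and 2.31 CPM (log2FC 1.88). In cholesterol and fatty acid synthesis 13 of 28 were higher and 4 lower, or 9 and 1 without replicate 3 and 8 and 1 without the block. INSIG1, a target and inhibitor of SREBP factors, rose from 32.7, 22.5 and 19.6 CPM to 59.1, 62 and 64.3 CPM (log2FC 1.32, SE 0.11), and SCD, stearoyl-CoA desaturase, rose less (0.68). Of 29 lysosome and autophagy genes 13 were higher and 3 lower, or 8 and 1 without replicate 3. The autophagy receptor SQSTM1 was among those that rose (log2FC 0.59).

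Interferon-stimulated and antigen presentation genes were higher with afatinib. Of 24 tested interferon-stimulated genes 16 were higher and 0 lower, with a median log2FC of 0.5. GBP2, a guanylate-binding protein, rose from 19.7, 15.5 and 11.3 CPM to 51.5, 46.6 and 61.4 CPM (log2FC 1.74, SE 0.16, adjusted p = 3.5e-10). The viral RNA sensor IFIH1 (log2FC 0.8) and the antiviral MX1 (0.74) rose less. The count of higher members was 8 without replicate 3 and 10 without the block. Of 22 antigen presentation genes 18 were higher and 0 lower, with a median of 0.43, and this count was 8 without replicate 3 and 9 without the block. HLA-DRA, a chain of MHC class II, rose from 6.0, 5.33 and 4.59 CPM to 10.7, 10.6 and 12.8 CPM (log2FC 1.08, SE 0.13), and reads of HLA genes can be split among near-identical copies. Of 20 genes of complement and the acute phase 10 were higher and 1 lower, or 6 and 1 without the block. CFI, complement factor I, rose from 5.91, 4.33 and 3.2 CPM to 12.9, 10.0 and 15.2 CPM (log2FC 1.5, SE 0.14). Chemokines and cytokines were split, with 7 of 26 higher and 6 lower, or 5 and 3 without replicate 3 and 4 and 3 without the block. Over all genes tested 19.2% were higher and 21.2% lower, or 2427 and 2641 of 19815 genes without the block. TNFSF15, a cytokine of the TNF family, rose from 4.29, 2.17 and 2.38 CPM to 10.6, 7.06 and 12.7 CPM (log2FC 1.74), and IL11 (log2FC -1.34), LIF (-0.95) and the neutrophil chemokine CXCL8 (-1.39) fell.

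Differentiation genes changed in single members. Of 30 gastric and intestinal genes 9 were higher and 4 lower, with a median of 0.05, and 2 were lower without replicate 3. For this and the next lists, 19.2% of all genes tested were higher and 21.2% lower. MUC1, a membrane mucin, rose from 24.3, 17.8 and 20.4 CPM to 41.2, 30.5 and 56.8 CPM (log2FC 0.99), while GATA6, a transcription factor of the gut lineage, fell from 16, 17 and 24 CPM to 9.64, 11.6 and 9.88 CPM (-0.86). Squamous and keratinocyte genes were higher in 9 of 25 and lower in 2, but the counts were 7 and 0 without replicate 3 and 1 and 0 without the block. KRT16, a keratin of activated keratinocytes, rose from 68.7, 55.3 and 84.2 CPM to 128, 128 and 203 CPM (log2FC 1.13, SE 0.11). Of 28 collagen genes 10 were higher and 1 lower. COL3A1 had 4.18, 2.78 and 0.88 CPM in untreated and 12.6, 7.23 and 4.39 CPM in afatinib libraries (log2FC 1.65, SE 0.16, adjusted p = 1.3e-09), and the lowest afatinib library lay just above the highest untreated library. PDGFRB, the receptor for platelet-derived growth factor, rose as well (log2FC 1.41). Both are among the 6 fibroblast markers described above, whose mean log2 CPM was 2.09, 2.08 and 0.84 in untreated, 3.37, 2.81 and 2.62 in afatinib and 0.52, 0.59 and 0.06 in EGF libraries, and the part of fibroblasts in the collagen values was not tested. BMP2, a bone morphogenetic protein, rose from 8.81, 5.44 and 4.72 CPM to 16.3, 11 and 14.6 CPM (log2FC 1.15). In the BMP and TGF-beta list 6 of 25 were higher and 9 lower, but the balance turned, with 6 and 2 without replicate 3 and 6 and 3 without the block. The lower count was 5 without replicate 1 and 5 with scaling by library size alone. Notch pathway genes were lower in 11 of 21 and higher in 4, and the counts were 3 and 4 without replicate 3 and 0 and 5 without the block. The lower count was 5 without replicate 1 and 5 with scaling by library size alone.

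**Figure D4:**
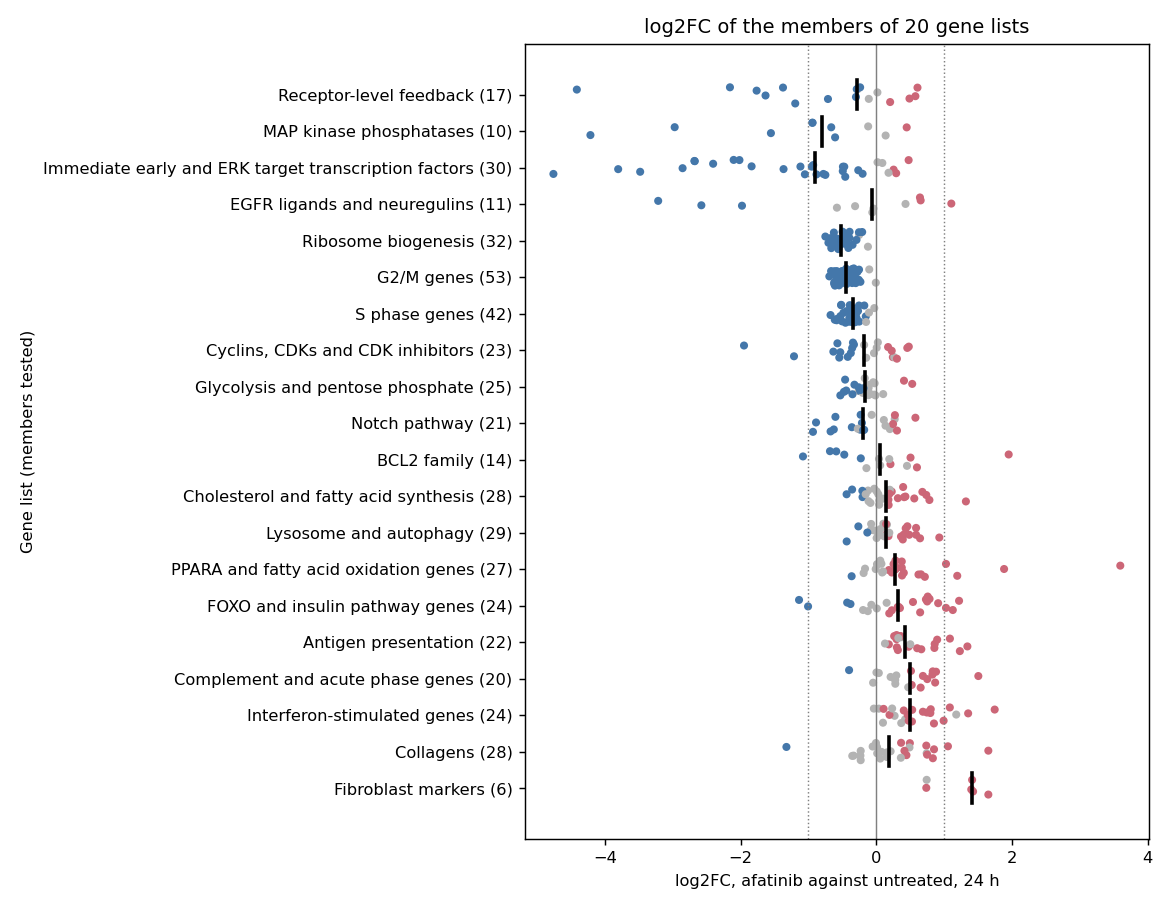
log2FC of afatinib against untreated MKN1 cells of 24 h (x axis) for the tested members of 20 gene lists, with 1 point per gene, red (higher) or blue (lower) where the adjusted p was below 0.05 and grey otherwise, and a bar at each list's median. The ERK target lists reach far to the left, and the 53 genes of G2/M lie close together at a median of -0.44.

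The effect of afatinib was measured again in 6 libraries that the comparison does not use, those of trastuzumab + afatinib and of trastuzumab at 24 h. In this comparison 732 genes (3.69%) were regulated upwards and 241 (1.22%) downwards, and by adjusted p alone 21% of all genes were higher and 22.7% lower. Of the 685 upregulated genes 431 (62.9%) were regulated in the same direction, which is 58.9% of the list with trastuzumab. Of the 245 downregulated genes 142 (58.0%) were, also 58.9% of the other list. The sign of the log2FC was the same for 673 of the 685 and 233 of the 245 genes, and 0 passed edgeR's adjusted p in the opposite direction. Pearson's r of the log2FC was 0.784 across all 19815 genes, which are not independent replicates, and both comparisons share their replicate numbers. EGR1 was at 66.5 to 257 CPM with trastuzumab and at 7.21 to 9.48 CPM with trastuzumab + afatinib (log2FC -3.86, SE 0.32). SPRY4 was at 8.1 to 45.3 CPM against 1.21 to 1.51 CPM (log2FC -4.07, SE 0.39). GPNMB was at 3.64 to 6.22 CPM against 25.4 to 29.4 CPM (log2FC 2.45, SE 0.16). In each of these the groups were separate, and SELENOP (3.1) and KANK4 (2.54) also rose. Of the gene lists, G2/M genes were lower in 48 of 53, ribosome biogenesis genes in 31 of 32 and ERK target factors in 24 of 30, and antigen presentation genes were higher in 15 of 22.

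After 4 h of afatinib, against untreated cells of 4 h, 95 genes (0.479%) were regulated upwards and 110 (0.555%) downwards, and by adjusted p alone 4.71% of all genes were higher and 6.7% lower. Of the 245 genes downregulated at 24 h, 59 (24.1%) were regulated in the same direction at 4 h, or 53.6% of the list of 4 h, and of the 685 upregulated genes 28 (4.09%), or 29.5%. The ERK targets were low by then. EGR1 was at 53.9 to 136 CPM in untreated and 7.22 to 9.13 CPM in afatinib libraries of 4 h (log2FC -3.52). SPRY4 was at 46.7 to 62 CPM against 3.68 to 4.4 CPM (-3.76), and DUSP6 at 24.3 to 42.5 CPM against 2.81 to 3.4 CPM (-3.34). The direct test of the effect at 24 h against that at 4 h gave an adjusted p of 0.047 for EGR1, 0.48 for SPRY4 and 0.3 for DUSP6. ETV5 had a log2FC of -1.24 at 4 h, and its effect was more negative at 24 h (adjusted p of the difference = 5.4e-05). The same held for MYEOV (-0.91 at 4 h, 5.1e-06). Each time has its own untreated libraries, so these differences also hold changes in the untreated level. Genes of proliferation followed a different course. Of the 53 G2/M genes 0 were lower and 4 higher at 4 h, and for 45 the effect was more negative at 24 h by adjusted p, against 7.23% of all genes (6.3% were more positive). This held for 27 of 42 S phase genes, and for 16 of 32 genes of ribosome biogenesis, of which 11 were lower at 4 h.

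Over all genes the effect was more positive at 24 h than at 4 h for 205 genes (1.03%) and more negative for 95 (0.479%), by the thresholds on both adjusted p and log2FC. Of the 205 genes 170 had no call at 4 h and were higher at 24 h, and 14 were lower at 4 h and higher at 24 h. The counts were 81 and 33 without the block and 74 and 41 without replicate 3. GPNMB was at 1.46 to 2.71 CPM in untreated and 2.32 to 3.06 CPM in afatinib libraries of 4 h (log2FC 0.3), and its effect was larger at 24 h by 2.17 on the log2 scale (SE 0.26, adjusted p = 8.3e-07). AOC1 had a log2FC of 0.03 at 4 h and NPNT of 0.09, and the differences were 2.29 (SE 0.36) and 1.93 (SE 0.2). SELENOP was low in both groups of 4 h, at 0.405 to 0.75 CPM in untreated and 0.305 to 0.672 CPM in afatinib libraries. BMF already differed at 4 h, at 1.55 to 2.02 CPM against 4.77 to 7.3 CPM (log2FC 1.67, adjusted p = 0.0019), and the test of the difference between the times was not passed (adjusted p = 0.76). NAV3, a microtubule-binding protein, had a log2FC of -1.39 at 4 h and 0.48 at 24 h, and the chemokine CCL2 of -1.26 and 0.57. The values of 24 h did not pass the test without replicate 3 (adjusted p = 0.27 and 0.14) or without the block (0.09 and 0.29).

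**Figure D5:**
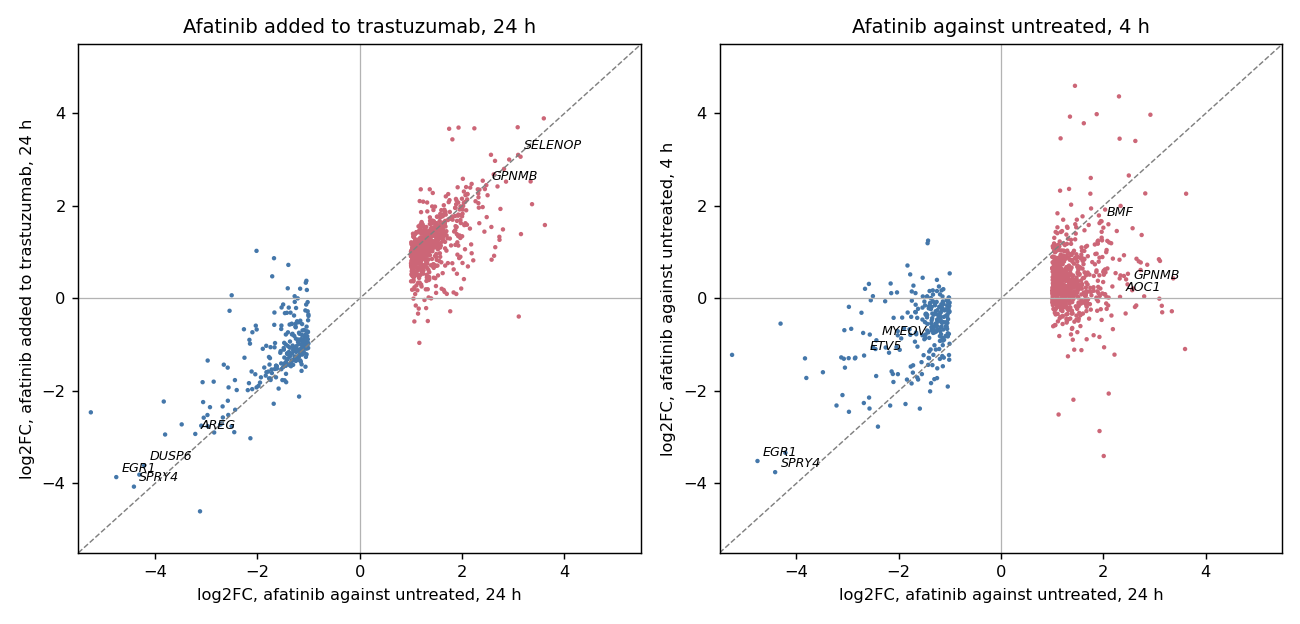
log2FC of the 930 genes regulated after 24 h of afatinib (x axes, red higher and blue lower) against their log2FC for afatinib added to trastuzumab at 24 h (left) and for afatinib at 4 h (right), with a dashed line of equal values. GPNMB lies near that line on the left (2.45) and far from it on the right (0.3).

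Afatinib was also compared directly with cetuximab at 24 h, a contrast without the untreated libraries, although these stayed in the fit and its estimate of spread. Regulated upwards with afatinib were 2 genes (0.0101%) and downwards 12 (0.0606%). GPNMB was at 28.7, 29.7 and 32.4 CPM with afatinib and at 11.5 to 14.6 CPM with cetuximab, without overlap (log2FC 1.17, SE 0.15, adjusted p = 9.5e-06). The other gene, HSPB7 (log2FC 1.08), lies under the level set for named genes and was chosen after its value was seen. EGR1 was at 7.84, 6.72 and 7.78 CPM with afatinib and at 20.1 to 33.4 CPM with cetuximab (log2FC -1.72, SE 0.31, adjusted p = 0.0017). SPRY4 was at 1.43, 1.42 and 1.16 CPM against 3.72 to 6.0 CPM (log2FC -1.81, SE 0.44, adjusted p = 0.023). The ETS factors ETV5 (-1.53) and ETV1 (-1.22), MYEOV (-1.11) and the phosphatase DUSP4 (-1.08) were lower with afatinib as well. Without the block 1 gene was regulated upwards and 3 downwards, and the calls of EGR1 (adjusted p = 0.053), SPRY4 (0.093), DUSP4 (0.115) and ETV1 (0.357) were lost. With only the afatinib and cetuximab libraries in the fit 0 genes were regulated in either direction by edgeR, and the adjusted p of GPNMB and the 6 lower genes named here was 0.113 to 0.419 (850 and 748 genes had an unadjusted p below 0.05, and DESeq2 in all libraries called 1 and 9). Against the same untreated libraries cetuximab gave 303 upregulated (1.53%) and 99 downregulated genes (0.5%), and EGF 452 (2.28%) and 1388 (7%). These comparisons share the untreated libraries with that of afatinib, so their values are only set side by side. SELENOP had a log2FC of 3.09 with afatinib, 2.3 with cetuximab and -2.5 with EGF, and KANK4 of 2.4, 1.75 and -3.64. SPRY4 had -4.41, -2.61 and 1.83, DUSP6 had -4.21, -2.75 and 1.8, and EGR1 had -4.76, -3.04 and -0.67.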

How the data were processed

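RNA of MKN1 cells was sequenced by the authors from directional mRNA libraries. The authors deposited raw read counts per Ensembl gene, without normalization. Their processing notes name Trim Galore, STAR and hg38. The counting tool, its annotation and its strand setting are not given in the sources used here, so overlapping, antisense and near-identical genes are uncertain. Counts on 37 mitochondrial genes were 0. Symbols and coordinates came from GENCODE release 29 (GRCh38), which lacks 8404 of 65217 identifiers (0.0374% of the MKN1 counts).

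All 42 MKN1 libraries (39005311 to 69434151 counts) were fitted in R 4.3.3 with edgeR 4.0.16 (TMM, filterByExpr with a minimum count of 10 and total of 15, glmQLFit and glmQLFTest), with a mean per treatment and time and the replicate number of the labels as a block. Deviations of same-numbered afatinib and untreated libraries of 24 h correlated in each pair (r = 0.217, 0.305 and 0.132), and likewise at 4 h (0.248, 0.350 and 0.321). With trastuzumab the values were 0.163, -0.010 and 0.106. Replicates are those of the labels, and p-values measure the spread between them, which may be technical. Among 42 pairs of replicates 0 were identical. SEs were derived from the F statistics, and mean log2 CPM used a prior count of 2.

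The comparison, the 34 gene lists and the 5 marker lists were chosen with earlier results of these data known, so counts over a list describe it and test nothing. Named genes were the 12 largest rises and falls among regulated genes with a symbol (clone names were passed over), a mean log2 CPM above 1 and the same direction in 3 pairs, the receptors and ligands, up to 8 members of each list by p and its defining members, and up to 6 rises and 6 falls of each other comparison, of which some are not reported here. Alternatives were 10 other settings, among them DESeq2 1.42.0. The fits were tested on simulated data. Python 3.11.15 with matplotlib 3.10.9 served for the plots.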

Additional observations from a re-analysis of the deposited data

Results flagged for a closer look

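The effect of afatinib differed between 24 h and 4 h for 205 genes in the positive and 95 in the negative direction, by the test of the difference itself in edgeR with the thresholds on adjusted p and log2FC. The log2FC at 24 h minus that at 4 h was 2.29 for AOC1, 2.17 for GPNMB, 1.93 for NPNT, 1.87 for NAV3, 1.86 for TNFSF15 and 1.83 for CCL2. On the negative side it was -2.08 for EGR3, -1.53 for MYEOV, -1.52 for VCAN, -1.45 for TRABD2B, -1.44 for ETV5 and -1.4 for LINC00707. VCAN, the matrix proteoglycan versican, was at 19.7, 17.2 and 41.4 CPM in untreated and 7.13, 6.51 and 6.1 CPM in afatinib libraries of 24 h. The difference for TRABD2B did not pass the test without replicate 3 (-0.97, adjusted p = 0.13), and that for EGR3 did not pass without the block (adjusted p = 0.081).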

How the results depend on the processing

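Leaving out each replicate in turn gave 315 to 890 upregulated and 148 to 282 downregulated genes for afatinib against untreated cells, 378 to 872 and 151 to 310 for afatinib added to trastuzumab, 74 to 219 and 41 to 94 for the time difference, and 1 to 3 and 5 to 6 against cetuximab. In the first 3 comparisons the lowest counts were those without replicate 3, and against cetuximab 1 gene upwards and 6 downwards were called without replicate 1. Without the replicate block these comparisons gave 628 and 202, 634 and 203, 81 and 33, and 1 and 3 genes. By adjusted p alone the block moved the main comparison from 3806 and 4192 to 2427 and 2641 genes, and that with trastuzumab, where 1 pair did not correlate, from 4158 and 4495 to 2560 and 2961. A minimum of 10 counts in every library gave 265 and 135 genes for the main comparison (15169 genes tested), 280 and 141 with trastuzumab, 55 downwards for the time difference and 1 upwards against cetuximab. With library sizes in place of TMM the median log2FC was 0.09, the share of upregulated among regulated genes went from 73.7% to 81.7%, and 1123 and 155 genes were regulated with trastuzumab. DESeq2 gave 666 and 239 genes for the main comparison, and 1 and 9 against cetuximab. With only the groups compared in the fit, edgeR gave 590 and 178 genes for the main comparison, 61 downwards for the time difference, and 0 and 0 against cetuximab, where 850 and 748 of 18472 genes had an unadjusted p below 0.05. Where only upwards or only downwards is named, the count of the other direction is not given here. The causes were not tested. Of 300 named genes 46 lost their call without the block and 37 without replicate 3, and 0 reversed a called direction in these settings.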

Other observations

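The lists not described above were mixed, and over all genes tested 19.2% were higher and 21.2% lower. Of 38 surface and cytokine genes of blood lineages 14 were higher and 11 lower, among them CSF1R, the receptor of a macrophage growth factor (log2FC 1.46), and IL7R, a receptor of lymphocytes (-1.17), while the immune marker PTPRC stayed at or below 0.204 CPM, and the lower count of the list was 6 without replicate 3. Of 16 NF-kB subunits and feedback genes 5 were higher and 3 lower, of 27 genes of epithelial and mesenchymal transition 6 and 3 (3 and 3 without replicate 3), of 28 WNT genes 8 and 7, and of 22 p53 targets 8 and 5 (4 and 3 without replicate 3). Without the block these lists had 3 and 3, 4 and 0, 5 and 6, and 3 and 3. Without replicate 2, 5 NF-kB genes and 8 p53 targets were lower, and without replicate 1 the p53 targets had 5 and 3. Of 22 ATF4 and ER stress genes 3 were higher and 8 lower, and the lower count was 2 without replicate 3. Of 29 genes of the primary cilium 8 were higher and 2 lower, and 2 were higher without replicate 3. Of 18 protocadherins and cadherins 6 were higher and 4 lower (5 and 2 without replicate 3), with CDH3, the placental cadherin, at 4.0, 3.37 and 2.32 CPM in untreated and 8.05, 6.96 and 7.4 CPM in afatinib libraries (log2FC 1.2). CDH5, a marker of endothelial cells, rose from 10, 0 and 3 counts to 35, 18 and 37 counts, whereas the endothelial marker KDR had at most 1 count in any of the 6 libraries. Epithelial markers were higher in 1 and lower in 3 of 6 (0 and 1 without replicate 3), and gastric markers in 1 and 2 of 5 (1 and 1 without replicate 3).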
